A study of Rattus norvegicus with 6 samples.

Results

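The genes described here are ligands and receptors of the tumor necrosis factor (TNF) superfamily and the TRAF adaptors, in a study of rat brain after intracerebral hemorrhage (ICH). Members were taken by gene symbol, after matching the array's transcript accessions to RefSeq, among symbols starting with Tnfsf, Tnfrsf or Traf and the lymphotoxin, Cd40, Cd27 and Cd70 genes. Tnf itself does not fall under those symbols and stands among the pathway genes. This gave 33 genes, read by 36 probes, of 12 ligands, 16 receptors and 5 adaptors, among 15443 gene symbols on the array. RefSeq holds 42 genes of this description, and the other 9 were not analysed here. Total RNA was hybridized to 6 single-colour Agilent arrays, 3 from brain tissue of sham-operated rats, the control group, and 3 from rats with ICH, whose brain tissue the labels call peripheral. All 6 carry the label day 1, given under age. The title speaks of injury around the hematoma, and the design text calls the ICH replicates transfected without saying with what. Strain, sex, the way of making the hemorrhage and the dissection are not given in the sources used here.

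Ligands of this superfamily are mostly membrane proteins that act as trimers on receptors with cysteine-rich repeats. Some receptors carry a death domain and can start cell death, while others bind TRAF proteins directly, and both kinds can switch on NF-kB and the JNK kinases. Lymphocytes use many of the pairs as co-stimulatory signals, and in injured brain microglia, astrocytes, neurons and entering leukocytes are known sources or targets of several of them.

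Signals are given as log2 of the processed signal relative to the 75th percentile of the array, in the order sham 1, 2, 3 and ICH 1, 2, 3. Differences are ICH minus sham on the log2 scale ± SE from limma, with n = 3 arrays a group, and p-values were adjusted by Benjamini-Hochberg over all 22179 rows tested. The 75th percentile of the signal ran from 5726 to 6676, 81.8% to 85.4% of spots were well above background and 0 were saturated. Neuronal, astrocyte and oligodendrocyte markers such as Snap25, Gfap and Mbp were well above background on all 6 arrays. The sham arrays correlated at 0.985 to 0.991 across rows and the ICH arrays at 0.949 to 0.98. Arrays within a group are described as biological replicates, and their small number limits the precision. In tissue of mixed cells, fewer cells of a type and less RNA per cell cannot be told apart.

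The receptors Tnfrsf25, Tnfrsf12a and Tnfrsf21 had higher signals on every ICH array than on any sham array, by 3.69-fold, 2.05-fold and 1.3-fold. The ligands Tnfsf12 and Tnfsf4 had lower signals on every ICH array, by 1.32-fold and 1.45-fold, but differed by only 0.03 and −0.10 on the log2 scale with arrays centred on spike-in probes, which raised the median of all rows to 0.39. These are measured differences that did not pass the test over all genes. Of the 33 genes, 26 were well above background on all 6 arrays, 2 on none, and 29 passed the filter of 3 arrays and were tested. With limma, 0 of the 29 were called at an adjusted p under 0.05, where 0% of all rows were, and the smallest adjusted p among members was 0.195. At an unadjusted p under 0.05 there were 4 members, 3 higher (Tnfrsf25, Tnfrsf12a and Tnfrsf21) and 1 lower (Tnfsf12), of 29, beside 14.7% of all rows (6.16% higher and 8.56% lower). The groups did not overlap in 7 of 29, beside 27.5% of all rows, with 4 higher in ICH beside 11% and 3 lower beside 16.5%. These shares are close to those of the array as a whole. The median difference was 0.12 over the members and −0.04 over all rows, and 16 of 29 members were higher in ICH beside 45.9% of all rows. Ligands had a median of −0.17, with 3 higher and 5 lower of 8. Receptors had a median of 0.14, with 10 higher and 6 lower of 16, and TRAF adaptors one of 0.23, with 3 higher and 2 lower of 5.

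The spread was wider among ICH arrays. The median standard deviation of a member was 0.22 over sham arrays and 0.38 over ICH arrays, and 23 of 29 members had the larger spread in ICH, or 79.3% of members beside 79.7% of all rows.

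**Figure D1:**
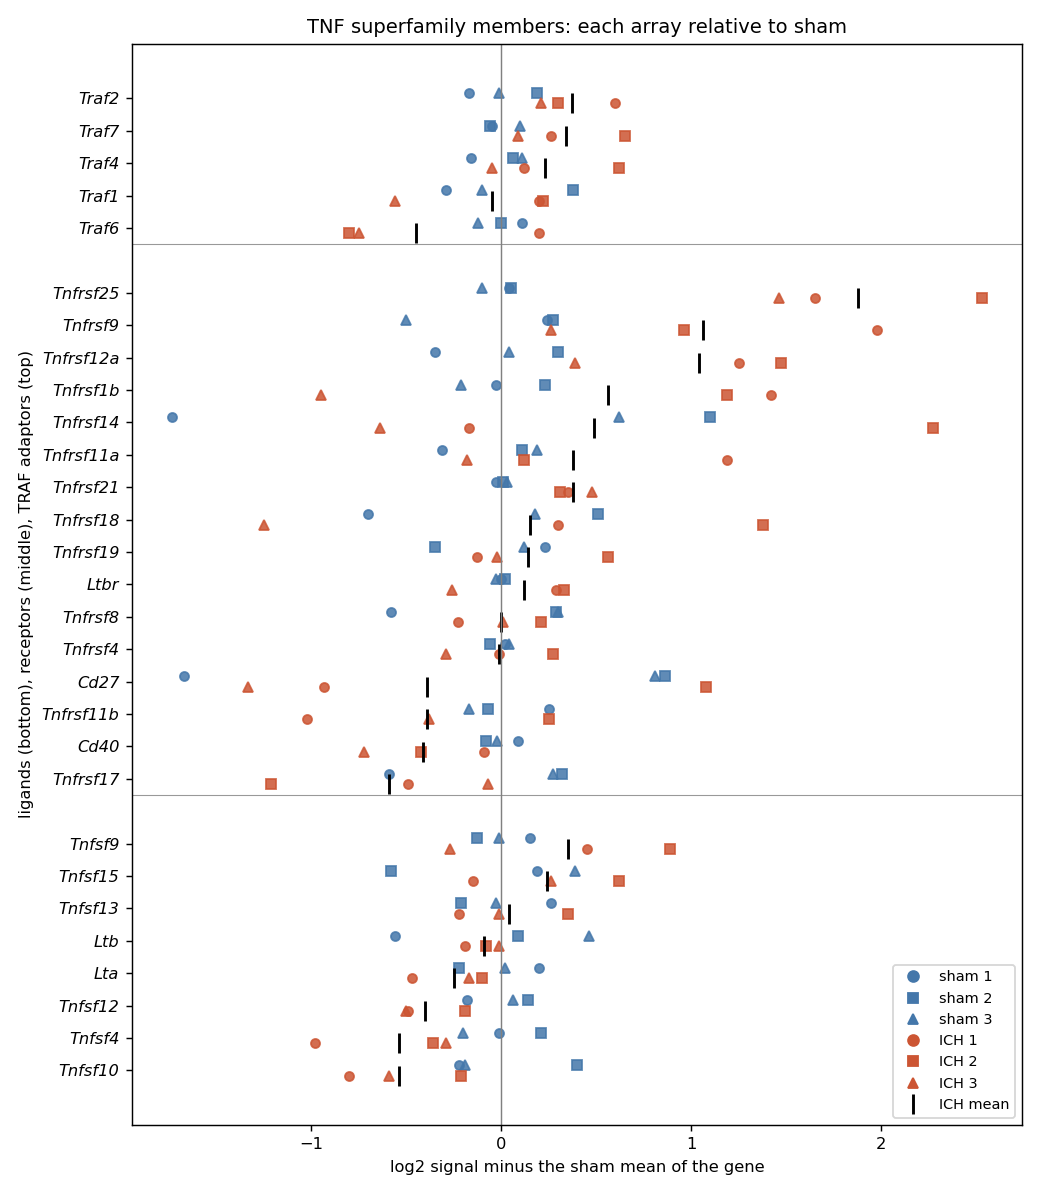
Each point is the log2 signal of a member on an array minus the mean of its 3 sham arrays (horizontal axis, log2), for the 29 genes tested, with ligands at the bottom, receptors in the middle and TRAF adaptors at the top. Circles, squares and triangles are replicates 1 to 3 of sham (blue) and ICH (orange), which were not paired in the main fit, and the black bar is the ICH mean. Tnfrsf25 stands apart with all 3 ICH points beyond 1, while in Cd27 and Tnfrsf14 the arrays of both groups are widely scattered.

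Tnfrsf25 encodes death receptor 3, a death-domain receptor best known from T cells, whose ligand is Tnfsf15. Its probe, A_44_P206399, with 1 spot an array, read −3.66, −3.65 and −3.80 on sham and −2.05, −1.17 and −2.24 on ICH. All ICH arrays lay well above all sham arrays, which were nearly equal. The difference was 1.88 ± 0.29 (adjusted p = 0.195), the largest among the members tested. It was 1.56 without ICH 2, the highest array, and 1.65 when blocked on slide row. Sham 1 to 3 share a row with ICH 1 alone, and ICH 2 and ICH 3 have a row to themselves. Blocking on slide row therefore compares ICH 1 alone with the sham arrays, for this and every other gene. Tnfsf15 read −3.20, −3.97 and −3.00 on sham and −3.54, −2.77 and −3.13 on ICH, with a difference of 0.24 ± 0.32 (adjusted p = 0.71). The ligand's groups overlapped, with sham 2 lowest and ICH 2 highest. The signals of 11 T cell markers were also summed, so that the brightest weigh most. The log2 of this sum was −2.01, 0.36 and 0.32 on sham and −0.68, 0.61 and −1.33 on ICH. Of the 11 only Cd4 had groups that did not overlap, lower in ICH (−0.69 ± 0.17, adjusted p = 0.301), and the part of T cells in the Tnfrsf25 result was not tested.

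Tnfrsf12a, the receptor Fn14, is induced in many injured tissues and binds the cytokine TWEAK, the product of Tnfsf12. Tnfrsf12a read −1.31, −0.66 and −0.92 on sham and 0.29, 0.51 and −0.57 on ICH. ICH 3 lay just above the highest sham array, and ICH 1 and ICH 2 far above. The difference was 1.04 ± 0.33 (adjusted p = 0.301), or 0.82 without ICH 2 and 1.36 without ICH 3. Its ligand went the other way: Tnfsf12 read −1.08, −0.76 and −0.84 on sham and −1.39, −1.09 and −1.40 on ICH. The groups of Tnfsf12 were separated only narrowly, by sham 1 and ICH 2. The difference of Tnfsf12 was −0.40 ± 0.16 (adjusted p = 0.337), and with arrays centred on spike-in probes it was 0.03, where the median of all rows was 0.39. Tnfsf13, the next gene to Tnfsf12 in the rat assembly GRCr8 and the source of the B cell factor APRIL, differed by 0.04 ± 0.21 (adjusted p = 0.939).

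Tnfrsf21 encodes death receptor 6, which in mice acts in axon pruning and in oligodendrocyte maturation. The probe A_42_P459212, with 10 spots an array, read 0.47, 0.51 and 0.53 on sham and 0.85, 0.81 and 0.98 on ICH. All ICH arrays were above all sham arrays, and the standard deviation among the 10 spots was at most 0.105 on any array. The difference was 0.38 ± 0.12 (adjusted p = 0.302). A second probe of Tnfrsf21, A_44_P185441, read −4.44, −4.40 and −4.30 on sham and −3.79, −3.57 and −3.72 on ICH, a difference of 0.69. Both probes thus put the 3 ICH arrays above the 3 sham arrays.

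**Figure D2:**
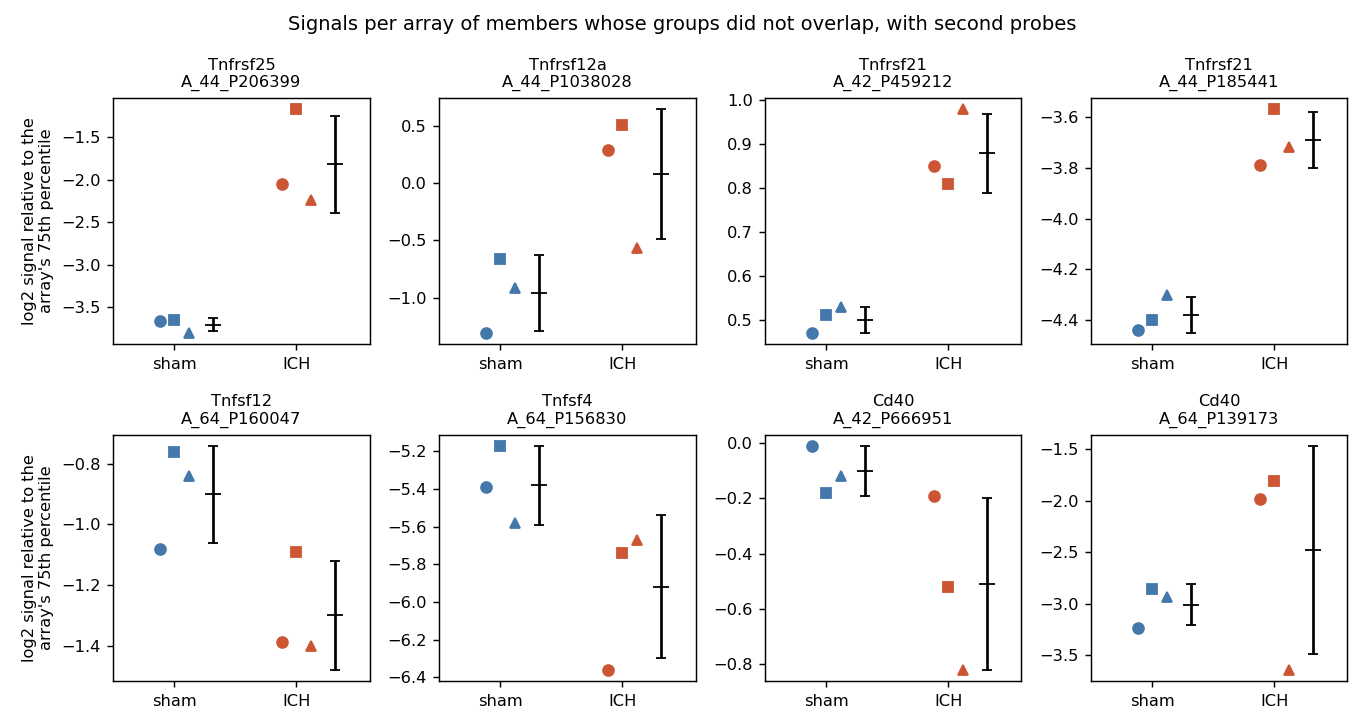
Log2 signal relative to the array's 75th percentile (vertical axis, on its own range in each panel) for Tnfrsf25, Tnfrsf12a, the 2 probes of Tnfrsf21, Tnfsf12, Tnfsf4 and the 2 probes of Cd40, with circles, squares and triangles for replicates 1 to 3 and bars for the mean ± SD of 3 arrays. The groups are apart in the first 7 panels and overlap for the second Cd40 probe, where ICH 1 and ICH 2 are high and ICH 3 is low.

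The region before the start of these 3 receptor genes is shown because they share the direction of their difference. The windows are RefSeq's, in GRCr8, from 250 bases before to 50 after the gene's start. They lie at chr5:167904536-167904835 on the plus strand for Tnfrsf25, chr10:13213599-13213898 on the minus strand for Tnfrsf12a and chr9:25451274-25451573 on the minus strand for Tnfrsf21. Capitals would mark the NF-kB letters (GGG, any 2 bases, TT, any base, CC) or the AP-1 letters TGANTCA on either strand, and these 3 windows hold neither.
Tnfrsf25: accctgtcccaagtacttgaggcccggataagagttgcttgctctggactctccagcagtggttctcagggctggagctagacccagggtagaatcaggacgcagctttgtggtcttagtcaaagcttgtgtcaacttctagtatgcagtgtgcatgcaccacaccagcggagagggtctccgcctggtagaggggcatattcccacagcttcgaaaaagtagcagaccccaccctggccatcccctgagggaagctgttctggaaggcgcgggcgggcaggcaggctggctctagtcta
Tnfrsf12a: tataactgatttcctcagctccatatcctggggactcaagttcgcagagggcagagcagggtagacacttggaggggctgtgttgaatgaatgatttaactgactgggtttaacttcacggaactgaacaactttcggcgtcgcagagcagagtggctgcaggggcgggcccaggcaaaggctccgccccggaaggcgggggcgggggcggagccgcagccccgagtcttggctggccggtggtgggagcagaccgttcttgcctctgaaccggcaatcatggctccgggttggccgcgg
Tnfrsf21: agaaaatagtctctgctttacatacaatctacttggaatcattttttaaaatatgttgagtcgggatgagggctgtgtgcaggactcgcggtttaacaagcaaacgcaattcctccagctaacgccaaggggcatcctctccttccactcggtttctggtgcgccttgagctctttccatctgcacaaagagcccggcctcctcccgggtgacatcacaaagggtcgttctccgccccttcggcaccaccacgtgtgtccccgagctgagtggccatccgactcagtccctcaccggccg

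Tnfrsf9, the co-stimulatory receptor 4-1BB of activated T cells, read −2.81, −2.78 and −3.55 on sham and −1.07, −2.09 and −2.79 on ICH. ICH 3 lay within the sham range. The difference was 1.06 ± 0.46 (adjusted p = 0.357), or 0.60 without ICH 1 and 1.97 blocked on slide row (ICH 1 alone against sham). Its ligand Tnfsf9 read −3.58, −3.86 and −3.74 on sham and −3.28, −2.84 and −4.00 on ICH, so that ICH 1 and ICH 2 lay above and ICH 3 below all sham arrays. The difference of Tnfsf9 was 0.35 ± 0.30 (adjusted p = 0.571).

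Cd40, a receptor of antigen-presenting cells that also occurs on microglia, gave different answers by probe. The brighter probe, A_42_P666951, read −0.01, −0.18 and −0.12 on sham and −0.19, −0.52 and −0.82 on ICH. ICH 1 was only just below the lowest sham array, and the standard deviation between the 2 spots of this probe reached 0.359. The difference was −0.41 ± 0.19 (adjusted p = 0.367), or −0.09 blocked on slide row (ICH 1 alone against sham). The second probe of Cd40, A_64_P139173, read −3.24, −2.86 and −2.94 on sham and −1.99, −1.81 and −3.64 on ICH, which is 0.53 higher in ICH on average. The mean of both probes of Cd40 differed by 0.06, so no direction can be given for this gene. The probe of its ligand Cd40lg was well above background on 0 arrays.

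Tnfsf4, the OX40 ligand of antigen-presenting cells, read −5.39, −5.17 and −5.58 on sham and −6.36, −5.74 and −5.67 on ICH. All ICH arrays were lower, with sham 3 and ICH 3 close to each other. The standard deviation between the 2 spots of Tnfsf4 reached 0.539 on the array where it was largest, more than the gap between the groups. The difference was −0.54 ± 0.23 (adjusted p = 0.351), −0.32 without ICH 1 and −0.97 blocked on slide row (ICH 1 alone against sham). Its receptor Tnfrsf4 was nearly flat at −3.42, −3.50 and −3.40 on sham and −3.45, −3.17 and −3.73 on ICH, a difference of −0.01 ± 0.17 (adjusted p = 0.986). Tnfsf10, the death ligand TRAIL, read −7.23, −6.61 and −7.20 on sham and −7.81, −7.22 and −7.60 on ICH. It was well above background on 3 sham arrays and 1 ICH array, and the groups met at sham 1 and ICH 2. The standard deviation among its 10 spots reached 1.16. The difference of Tnfsf10 was −0.54 ± 0.24 (adjusted p = 0.365), and −0.21 with normexp background correction.

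For Cd27, Tnfrsf14 and Tnfrsf18 the spread within each group was larger than the difference between the groups. Cd27, a receptor of T and B cells that binds Cd70, read −7.30, −4.77 and −4.82 on sham and −6.56, −4.55 and −6.96 on ICH. Tnfrsf14 encodes HVEM, which lymphocytes carry and which binds the ligand encoded by Tnfsf14. Tnfrsf14 read −6.05, −3.22 and −3.70 on sham and −4.49, −2.05 and −4.96 on ICH. In both genes sham 1 and ICH 3 were the lowest arrays and ICH 2 the highest, and sham 1 differed from the other sham arrays by more than the group means differed. Tnfrsf18, the regulatory T cell receptor GITR, read −6.98, −5.77 and −6.10 on sham and −5.98, −4.90 and −7.53 on ICH, the lowest of these below background. The differences were −0.39 ± 0.91 for Cd27, 0.49 ± 1.02 for Tnfrsf14 and 0.15 ± 0.69 for Tnfrsf18 (adjusted p = 0.841, 0.824 and 0.925).

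Most T cell markers had the same low arrays. Of the 11 tested, 4 were higher and 7 lower in ICH with a median difference of −0.16, 0 were called, and none was below background on all arrays. Cd3g, a chain of the T cell receptor complex, read −4.54, −1.64 and −1.69 on sham and −3.16, −1.29 and −4.01 on ICH. Sham 1 and ICH 3 were the lowest 2 of the 6 arrays in 8 of 11 T cell markers, and in 6 of the 29 members (Cd27, Tnfrsf14, Tnfrsf18, Tnfrsf11a, Traf1 and Traf4), beside 4.67% of all rows. The same 2 arrays were lowest in 7 of 15 NF-kB response genes and 6 of 28 adaptors and kinases of TNF receptors. They were also lowest in 3 of 5 neutrophil and 3 of 10 monocyte and macrophage markers, but in 0 of 7 neuronal and 0 of 8 oligodendrocyte markers. This pattern is thus not particular to T cell markers, and it was chosen after the values were seen. Of the B cell markers 5 were tested, and Cr2 was below background on all arrays. The log2 of the summed signals of these 5 was −3.42 to −3.21 on sham and −3.55 to −2.72 on ICH. Whether the number of T cells in the tissue accounts for these receptor levels was not tested.

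**Figure D3:**
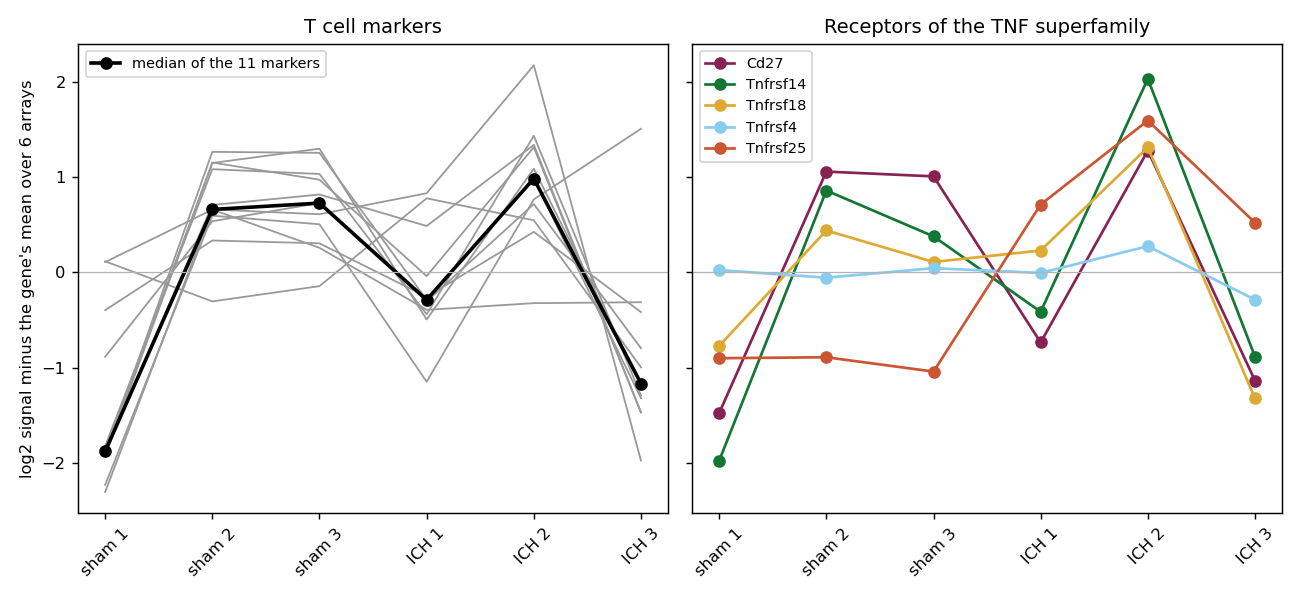
Log2 signal on each array minus the gene's mean over the 6 arrays (vertical axis), for 11 T cell markers (left, grey, with their median in black) and for 5 receptors of the TNF superfamily (right). Cd27, Tnfrsf14 and Tnfrsf18 are low on sham 1 and ICH 3 as most T cell markers are, Tnfrsf4 hardly varies, and Tnfrsf25 is level over the sham arrays and higher on all ICH arrays.

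Tnfrsf1b, the TNF receptor of leukocytes and microglia, read −4.59, −4.33 and −4.77 on sham and −3.14, −3.37 and −5.51 on ICH. Ltbr, the lymphotoxin beta receptor, read 1.21, 1.23 and 1.18 on sham and 1.5, 1.54 and 0.95 on ICH. In both, as in Tnfsf9, the first 2 ICH arrays exceeded the whole sham range and ICH 3 fell short of it, and these 3 of 29 members compare with 3.84% of all rows. The differences were 0.56 ± 0.63 for Tnfrsf1b and 0.12 ± 0.19 for Ltbr (adjusted p = 0.666 and 0.769). Of 10 monocyte and macrophage markers, 5 had this pattern, 9 were higher in ICH and 0 were called. The log2 of their summed signals was 2.12 to 2.41 on sham and 2.85, 3.24 and 1.92 on ICH. None of these markers was below background on all arrays, and their part in the levels of Tnfrsf1b, Ltbr and Tnfsf9 was not tested. Of the ligands of Ltbr, Lta differed by −0.25 ± 0.17 and Ltb by −0.09 ± 0.27 (adjusted p = 0.503 and 0.876). Tnfsf14, too dim to be tested, also had ICH 1 and ICH 2 above and ICH 3 below all sham arrays. Its sham arrays and ICH 3 were below background.

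Receptors of the bone and plasma cell systems had overlapping groups. Tnfrsf11a, or RANK, differed by 0.38 ± 0.38 (adjusted p = 0.623) and its soluble decoy Tnfrsf11b, osteoprotegerin, by −0.39 ± 0.33 (adjusted p = 0.572). Their ligand gene Tnfsf11 was well above background on 0 arrays. Tnfrsf17, the plasma cell receptor BCMA, was at −0.59 ± 0.38 (adjusted p = 0.472) and the glial receptor Tnfrsf19 at 0.14 ± 0.25 (adjusted p = 0.793). Tnfrsf8, or CD30, was at 0.00 by its brighter probe, while a second probe of Tnfrsf8, above background on 4 arrays, gave −0.41.

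A pair of neighbouring ligand genes was above background on ICH arrays alone, on some of them. Cd70, the ligand of Cd27, read −9.45, −8.67 and −8.90 on sham and −8.26, −7.46 and −6.67 on ICH, and was well above background on 0 sham arrays and 1 ICH array. With sham values set no lower than the lowest signals above background, the ICH mean of Cd70 was 2.35-fold higher. That is not a lower limit, because ICH 1 and ICH 2 were themselves below background. On ICH 3 1 spot of Cd70 read −5.16 and the other −8.17, and only the first was above background. Tnfsf14, the ligand LIGHT, read −7.80, −7.58 and −7.68 on sham and −7.14, −6.68 and −8.17 on ICH, above background on ICH 1 and ICH 2 alone. Its ICH mean was 1.28-fold higher as measured, with ICH 3 below every sham array. Neither passed the filter, and in the fit without it the adjusted p was 0.375 for Cd70 and 0.71 for Tnfsf14.

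The promoter windows of Cd70 and Tnfsf14 are shown because they hold the NF-kB letters, printed in capitals. Cd70 lies at chr9:2096643-2096942 and Tnfsf14 at chr9:2160037-2160336, both on the minus strand in GRCr8.
Cd70: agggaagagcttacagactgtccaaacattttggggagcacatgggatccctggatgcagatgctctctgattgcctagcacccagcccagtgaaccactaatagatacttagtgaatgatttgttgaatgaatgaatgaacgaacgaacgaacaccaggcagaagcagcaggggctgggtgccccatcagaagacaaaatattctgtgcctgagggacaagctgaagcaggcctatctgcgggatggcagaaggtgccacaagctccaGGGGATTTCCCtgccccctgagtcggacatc
Tnfsf14: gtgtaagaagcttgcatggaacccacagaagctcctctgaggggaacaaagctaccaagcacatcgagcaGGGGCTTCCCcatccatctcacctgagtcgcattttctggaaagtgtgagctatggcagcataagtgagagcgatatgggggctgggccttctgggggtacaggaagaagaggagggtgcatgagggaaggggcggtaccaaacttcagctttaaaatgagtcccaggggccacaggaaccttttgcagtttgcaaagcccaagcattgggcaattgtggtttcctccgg
In Cd70 the capitals are 2 overlapping matches, starting 19 bases after the gene's start. Of the 23 member genes with a window in the RefSeq table, 5 held the NF-kB letters on either strand (Cd70, Tnfsf14, Lta, Ltb and Tnfrsf4), where 5% of all 33469 windows of 300 bases did. TGANTCA, added later, was in 3 of 23 (Tnfrsf1b, Tnfrsf8 and Traf1) beside 7.33% of all windows. A match is a description of letters, not of a binding site. Of the 5 genes with the NF-kB letters, Lta, Ltb and Tnfrsf4 were tested, and none of these had groups that did not overlap.

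The TRAF adaptors link the receptors to NF-kB and kinase signalling, and Traf6 also serves the Toll-like receptors. Traf2 read −2.59, −2.23 and −2.43 on sham and −1.82, −2.12 and −2.21 on ICH, all ICH arrays being higher by a narrow margin. The difference was 0.37 ± 0.17 (adjusted p = 0.367), or 0.25 without ICH 1 and 0.59 blocked on slide row (ICH 1 alone against sham). Traf7 read −0.74, −0.75 and −0.59 on sham and −0.43, −0.04 and −0.60 on ICH, a difference of 0.34 ± 0.18 (adjusted p = 0.413), or 0.18 without ICH 2. Traf6 read −5.00, −5.11 and −5.23 on sham and −4.91, −5.91 and −5.86 on ICH, with ICH 1 above and the other ICH arrays below every sham array. Its difference of −0.45 ± 0.29 (adjusted p = 0.477) was 0.20 blocked on slide row (ICH 1 alone against sham) and −0.77 without ICH 1. Traf4 differed by 0.23 ± 0.21 and Traf1, which is itself induced by NF-kB, by −0.05 ± 0.28 (adjusted p = 0.591 and 0.943).

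Genes next to the receptors in the pathway were read from 4 lists. Among 28 adaptors and kinases of TNF receptors, 20 were higher and 8 lower in ICH with a median of 0.17, and 0 were called. Birc3, a ubiquitin ligase of TNF receptor complexes that NF-kB induces, differed by 1.01 ± 0.65 and the necroptosis kinase Ripk3 by 0.94 ± 0.64 (adjusted p = 0.472 and 0.493). Both were low on ICH 3, where Birc3 read −3.71 beside −1.96 and −1.23 on ICH 1 and 2. The brightest of the list were Sharpin and Rbck1, partners in the linear ubiquitin ligase, at −0.11 ± 0.16 and −0.30 ± 0.12 (adjusted p = 0.719 and 0.339).

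All 6 NF-kB subunits and inhibitors tested were higher on average, with a median of 0.41, and 0 were called. Bcl3, an atypical inhibitor protein, read −3.84, −3.02 and −3.63 on sham and −0.86, −0.28 and −3.48 on ICH, high on 2 of the ICH arrays and within the sham range on ICH 3 (1.96 ± 0.83, adjusted p = 0.347). Nfkb2, of the noncanonical pathway that Cd40 and Ltbr use, differed by 0.70 ± 0.40, and the brightest members Nfkbia and Nfkbib by 0.41 ± 0.30 and 0.39 ± 0.17 (adjusted p = 0.437, 0.526 and 0.359).

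Of 15 NF-kB response genes 12 were higher and 3 lower (median difference 0.43), and 0 were called. The chemokine Ccl2 read −6.30, −3.95 and −5.17 on sham and −0.28, 0.64 and −6.48 on ICH, and Cxcl1 had the same split, with differences of 3.10 ± 1.89 and 2.97 ± 1.90 (adjusted p = 0.456 and 0.472). ICH 1 and ICH 2 lay above and ICH 3 below all sham arrays in 7 of the 15. The brightest, Gadd45b and Vcam1, were at 0.45 ± 0.20 and −0.81 ± 0.13 (adjusted p = 0.361 and 0.197). Vcam1, an adhesion molecule of vessels, was one of the 3 lower genes, with Cxcl10 at −0.88 ± 0.97 and Tnfaip2 at −0.37 ± 0.77 (adjusted p = 0.659 and 0.822).

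Of the other family genes outside the symbols used here, 2 of 6 were higher and 4 lower (median difference −0.19) and 0 were called. Tnf read −5.72, −3.64 and −4.69 on sham and −3.26, −2.16 and −5.14 on ICH, so that ICH 3 fell inside the sham range (1.16 ± 0.86, adjusted p = 0.522). Ngfr, the low-affinity neurotrophin receptor, differed by −1.33 ± 0.87 through a reading of −4.87 on ICH 2, and Relt by 0.06 ± 0.34 (adjusted p = 0.481 and 0.943).

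**Figure D4:**
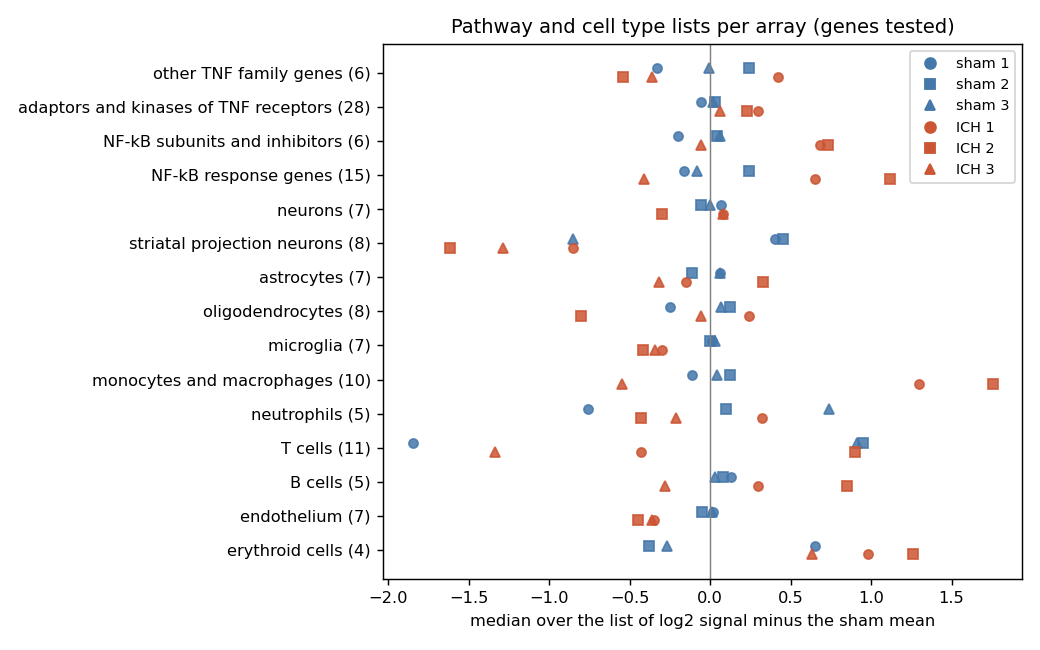
Each point is the median over a list of the log2 signal minus the gene's sham mean (horizontal axis) on an array, with circles, squares and triangles for replicates 1 to 3 of sham (blue) and ICH (orange) and the number of genes tested in brackets. NF-kB response genes and monocyte and macrophage markers are high on ICH 1 and ICH 2 and lowest on ICH 3, and T cell markers are low on sham 1 and ICH 3.

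Marker levels of other cell types also differed between arrays. Of 8 striatal projection neuron markers 8 were lower in ICH with a median of −1.13, and sham 3 lay at the level of ICH 1. The medians were −0.12 for 7 neuronal, −0.34 for 7 astrocyte, −0.30 for 8 oligodendrocyte, −0.36 for 7 microglial and −0.44 for 7 endothelial markers, and 0.95 for 4 erythroid, 0.25 for 5 B cell and −0.01 for 5 neutrophil markers (Elane and Mmp8 below background on all arrays), with 0 called in any list. Their part in the levels of the TNF superfamily genes was not tested.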

How the data were processed

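Per the file headers, the intensity values of the 6 scanner files came from Agilent Feature Extraction 11.5.1.1 without between-array normalization, while version 10.7 stands in the submitters' processing notes. The flags of 0 or 1 for background, saturation and uniformity are deposited in the same files, and the array's design was built on rn4. The deposited table of log2 values equals, within 0.001 for 98.5% to 99.3% of probes after a constant shift per array, the log2 intensity minus a 75th percentile, a step worked out from the values; its column medians ran from −2.77 to −2.61.

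Here control spots and spots marked as not uniform were left out, each array's 75th percentile over its 58717 non-control spots was subtracted from log2 intensity, and spots of a probe were averaged. Probes counted as well above background with at least 0.5 of their spots, and 24650 probes with this on 3 arrays were kept, less 4 with a missing value. Accessions were matched to RefSeq (GRCr8, names only): of 30367 probes 18355 had 1 symbol, 0 several and 12012 none. The brightest probe stood for a symbol, which gave 22179 rows, fitted by lmFit and eBayes of limma 3.58.1 (R 4.3.3, 6.12 degrees of freedom). The fit was also run on simulated data in which all 6 arrays had the sham spread. That leaves out the wider spread of the ICH arrays (median SD of all rows 0.31, beside 0.14 in sham). For a gene below background on every array of a group, its values there were set no lower than the lowest signal above background. The values of the other group were used as measured. All arrays share 1 slide. Figures used matplotlib 3.10.9.

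Some receptors of the family are not reported here. The members, lists and tests were chosen with earlier results of these data known. Values per array are given for members whose groups did not overlap, for the 3 with the largest difference in each role, and for partners of these and members of shared patterns, chosen after their values were seen, as were Cd3g and the AP-1 letters. P-values weigh the difference between the groups against the spread among these samples, with variances moderated by limma over all rows. For pathway lists the 2 brightest genes and the 2 with the largest difference are named, and cell type lists are given as medians. Alternatives were the deposited values, normexp (offset 50, on median in place of mean signals), quantile normalization, median and spike-in centring, the filter, marked spots, the handling of probes, variance model, array weights, replicate and slide row blocks and leaving out arrays.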

Additional observations from a re-analysis of the deposited data

How the results depend on the processing

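No member was called by limma under any of the 21 alternatives run. The number of members at an unadjusted p under 0.05, 4 of 29 in the main setting, ran from 2 (without sham 1, 2 or 3) to 7 (without ICH 3) with 1 array left out. The share of all rows moved as well, from 14.7% in the main setting to 6.07%, 9.07% and 7.81% without sham 1, 2 and 3. It was 21.1% without ICH 3. The number whose groups did not overlap, 7 in the main setting, ran from 8 to 13 with 1 array left out. Leaving out an array can only keep or raise this number, so the rise says nothing on robustness. The share of all rows rose as well, from 27.5% to between 32.3% (without sham 1) and 43.5% (without ICH 2). The number of members was 11 without sham 1 and 13 without ICH 3, where 32.3% and 43% of all rows did not overlap. Without sham 1 and ICH 3, an alternative chosen after seeing the data, it was 17, where 49.1% of all rows did not overlap.

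The median difference of the members, 0.12, was 0.55 with spike-in centring, which moved the median of all rows from −0.04 to 0.39. At an unadjusted p under 0.05, 6 members were then higher and 0 lower, beside 23.8% of all rows in either direction. The median difference of the members was −0.12 with array quality weights, and from −0.11 (without ICH 2) to 0.22 (without ICH 3) with 1 array left out. The cause was not tested. With spike-in centring Cd40 differed by 0.02, Tnfsf12 by 0.03, Tnfsf4 and Tnfsf10 by −0.10 and Traf6 by −0.01; relative to the median of all rows these were −0.37, −0.36, −0.50, −0.50 and −0.41. Cd40 differed by 0.06 with the mean of its probes, and Traf6 by 0.20 with the slide row as a block, which compares ICH 1 alone with sham.

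The adjusted p of Tnfrsf25 ran from 0.0606 (array quality weights) to 0.598 over the alternatives. With the replicate number as a block 4 members had an unadjusted p under 0.05, beside 10.9% of all rows. Tnfrsf25 was then at 1.88 (adjusted p = 0.458). The deviations of same-numbered arrays correlated at −0.19, −0.01 and 0.07, and 1 of 3 sham arrays was closest to the ICH array of its own number. These values show no pairing by number, but with 3 arrays a group they cannot exclude one.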
